A study of Mus musculus with 23 samples.

Results

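The Cyp4 genes described here encode cytochrome P450 enzymes that hydroxylate fatty acids, and they are 10 of the 27179 genes counted in mouse liver. They were chosen by symbol: Cyp4a10, Cyp4a12a, Cyp4a12b, Cyp4a14, Cyp4a31, Cyp4a32, Cyp4f13, Cyp4f14, Cyp4f15 and Cyp4v3, and all 10 had reads. RNA came from liver free of visible tumors of 15 female mice. All of them carried Alb-Cre, which recombines floxed alleles in cells that use the albumin promoter, chiefly hepatocytes, and all were Trp53 flx/flx. Ctrl mice (n = 6) had wild-type Braf and were Icmt flx/+. ABpIF/+ mice (n = 6) carried 1 BrafCA allele, from which Cre yields Braf V600E, and were also Icmt flx/+, whereas ABpIF/F mice (n = 3) differed from these in being Icmt flx/flx. The genotype labels of the ABpI mice write Braf as +/+ where the study's design gives BrafCA/+, and the design was followed. Strain labels differed as well. The Ctrl mouse BG3 and all ABpI mice shared a label, and the other Ctrl mice carried another, so strain and Braf genotype were nearly confounded. Ages are not in the labels, and by the study's account the 3 ABpIF/F mice were taken at different ages.

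CYP4 enzymes add a hydroxyl group to the last carbon of a fatty acid or eicosanoid, using electrons passed on by NADPH-cytochrome P450 reductase (Por). Alcohol and aldehyde dehydrogenases then turn the product into a dicarboxylic acid, which peroxisomes shorten by beta oxidation. In rodent liver Cyp4a10 and Cyp4a14 are classical targets of the nuclear receptor PPAR alpha and are induced by fasting, Cyp4a12a is typical of males, and Cyp4f14 takes part in the inactivation of leukotriene B4.

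The 6 Cyp4a members lie in 1 cluster on chromosome 4 (GENCODE M21 on GRCm38). Cyp4a12a spans chr4:115299046-115332815, Cyp4a12b spans chr4:115411624-115439034, Cyp4a14 spans chr4:115486200-115496142, Cyp4a10 spans chr4:115518264-115533649, Cyp4a31 spans chr4:115563649-115579015 and Cyp4a32 spans chr4:115600969-115621602. All are on the plus strand except Cyp4a14. Cyp4f15 (chr17:32685627-32703352, plus strand), Cyp4f14 (chr17:32905070-32917342, minus strand) and Cyp4f13 (chr17:32924688-32947402, minus strand) lie together on chromosome 17, and Cyp4v3 (chr8:45304944-45333216, minus strand) stands alone on chromosome 8.

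Reads of the Cyp4a paralogs can be hard to assign, so a stretch of coding sequence is shown for 4 of them, bases 106 to 165 counted from the start codon, from the GENCODE M21 transcripts. Capitals mark bases that differ from Cyp4a10.
Cyp4a10: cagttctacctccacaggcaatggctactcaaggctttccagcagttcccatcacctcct
Cyp4a31: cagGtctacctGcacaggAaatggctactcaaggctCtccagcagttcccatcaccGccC
Cyp4a32: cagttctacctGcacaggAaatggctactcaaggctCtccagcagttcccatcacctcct
Cyp4a14: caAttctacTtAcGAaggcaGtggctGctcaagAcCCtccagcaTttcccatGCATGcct
In this stretch of 60 bases Cyp4a31 differed from Cyp4a10 at 6 positions, Cyp4a32 at 3 and Cyp4a14 at 16. It was picked as a window in which Cyp4a10, Cyp4a31 and Cyp4a32 can be told apart. Over the whole coding sequence Cyp4a10 was 96.6% identical to Cyp4a31, 97.2% to Cyp4a32 and 77.6% to Cyp4a14, and Cyp4a12a was 98.5% identical to Cyp4a12b. Of all windows of 150 bases in its transcript, 4.34% for Cyp4a10, 4.19% for Cyp4a31 and 7.97% for Cyp4a32 also occurred in a transcript of another gene, against 25.6% for Cyp4a12a and none for Cyp4a14, Cyp4f13, Cyp4f14 or Cyp4f15. With windows of 50 bases the shares were 30.5% for Cyp4a10, 21.8% for Cyp4a31 and 46.8% for Cyp4a32, but 0.245% for Cyp4a14. Counts of Cyp4a10, Cyp4a31 and Cyp4a32, and of Cyp4a12a and Cyp4a12b, are therefore uncertain as to which paralog a shared read came from. Of the windows of 150 bases in Cyp4v3, 4.48% were shared with the overlapping gene model Gm45753.

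Counted reads ranged from 24742910 to 32262649 over the 15 mice. Values are given as CPM, the counts of a library scaled to a common total after TMM normalization. A gene was called when its Benjamini-Hochberg adjusted p over all genes was under 0.01 and its absolute log2 fold change at least 1, in edgeR's quasi-likelihood test with all 3 groups in 1 fit. Icmt, the targeted gene, stood at 15.2 to 16.6 CPM in ABpIF/F mice and at 27.8 to 34.7 CPM in Ctrl mice. The albumin transcript of hepatocytes stood at 76790 CPM or more in every mouse. Besides genotype, the groups differed in health, in strain label and in the levels of clock genes. By the study's account ABpIF/+ mice lost weight and showed signs of illness, whereas Ctrl and ABpIF/F mice did not. The part of this in the results was not tested. The 5 Ctrl mice other than BG3 carried another strain label than the ABpI mice. A clock score, the mean log2 CPM of 5 genes that peak with Bmal1 minus that of 10 genes that peak with Dbp, lay between 0.0011 and 2.44 in ABpIF/F mice and between -3.75 and -2.87 in ABpIF/+ mice. In Ctrl it lay between -4.37 and -3.49 in 5 mice and at 1.10 in mouse malpa387. The score comes from the same RNA, so a difference in sampling time cannot be told apart from an effect of genotype.

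In Ctrl liver, where levels were compared per kilobase of exon, Cyp4a14 had the highest median (248 CPM per kb), followed by Cyp4a10 (225) and Cyp4f14 (165). Cyp4v3 (99.6) and Cyp4f15 (72.4) came next, and then Cyp4f13 (15.1), Cyp4a32 (14.0) and Cyp4a31 (2.88). The ranges of Cyp4a14 and Cyp4a10 overlapped, as did those of Cyp4a10 and Cyp4f14, of Cyp4v3 and Cyp4f15, and of Cyp4f13 and Cyp4a32. Cyp4a12a and Cyp4a12b had medians of 0.0826 and 0.0571 CPM per kb. In ABpIF/+ mice Cyp4a14 (78.3) and Cyp4a10 (71.9) still had the highest medians, with overlapping ranges. In ABpIF/F mice Cyp4f14 (49.0), Cyp4v3 (41.1) and Cyp4f15 (34.0) came first by median, again with overlapping ranges. Cyp4a14 (8.71) and Cyp4a10 (6.82) were in places 6 and 8. The range of Cyp4a14, from 6.45 to 43.2, overlapped those of Cyp4f14, Cyp4v3 and Cyp4f15.

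**Figure D1:**
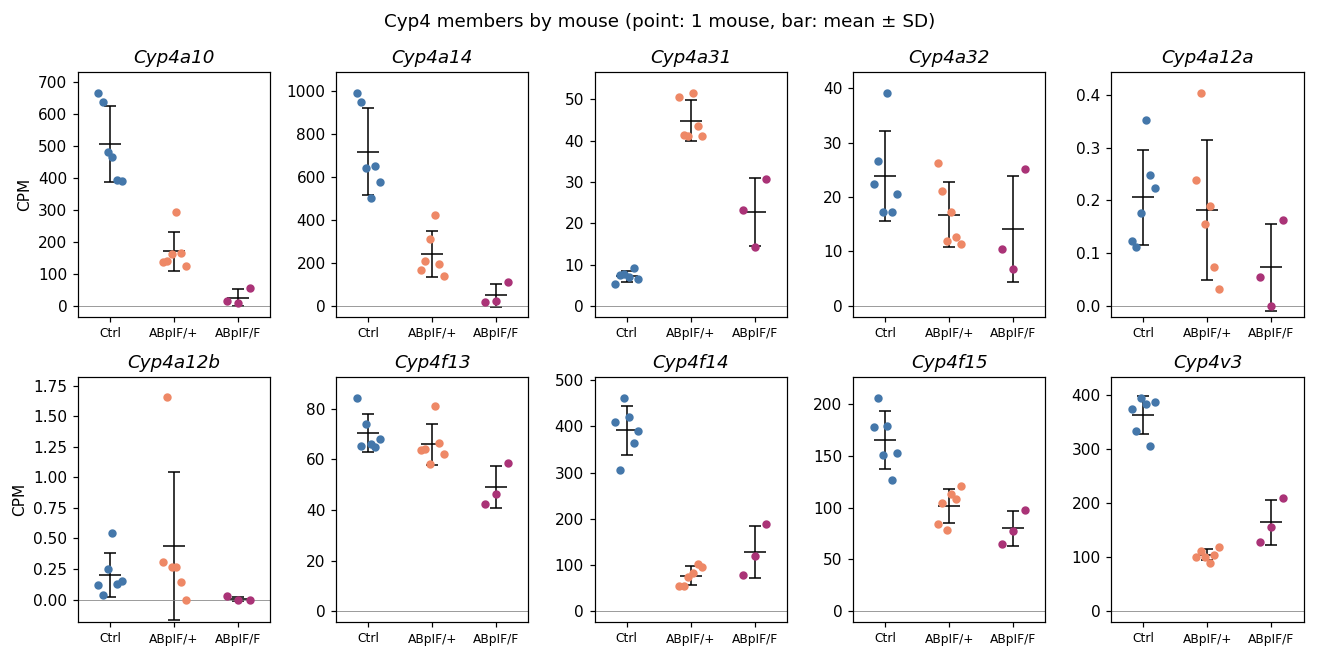
Each panel shows 1 Cyp4 member, with CPM on a linear axis for each mouse of Ctrl (n = 6), ABpIF/+ (n = 6) and ABpIF/F (n = 3); points are mice and black bars the mean ± SD. Cyp4a10 and Cyp4a14 are highest in Ctrl and lowest in ABpIF/F mice, whereas Cyp4a31 is lowest in Ctrl and highest in ABpIF/+ mice.

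The comparison of ABpIF/+ with Ctrl mice asks what the Braf V600E allele changes in livers that keep 1 Icmt allele. Cyp4a31 was upregulated, and Cyp4a10, Cyp4f14 and Cyp4v3 were downregulated, so that 1 of 10 members was called up and 3 were called down. Among all genes with a read, 6.26% were called up and 7.13% down, and among genes averaging 1 CPM or more 8.21% were called up and 9.39% down.

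Cyp4a10, a fatty acid hydroxylase induced through PPAR alpha, ranged from 391 to 666 CPM in Ctrl mice with a median of 474, and from 124 to 293 CPM in ABpIF/+ mice with a median of 152. The groups did not overlap, and BG55 was the highest of the ABpIF/+ mice. The log2 fold change was -1.57 ± 0.38 (SE, adjusted p = 0.00701 by edgeR). This call lay near the threshold, since leaving out any of 10 of the 15 mice raised the adjusted p above 0.01, to at most 0.0184, while the log2 fold change stayed between -1.79 and -1.48. Cyp4a14, its neighbour with a similar activity, ranged from 502 to 992 CPM with a median of 646 in Ctrl mice and from 138 to 424 CPM with a median of 204 in ABpIF/+ mice. These groups did not overlap either, but the log2 fold change of -1.58 ± 0.44 had an adjusted p of 0.0169 by edgeR and was not called. DESeq2 called it (adjusted p = 0.00183), and over all alternatives the adjusted p lay between 0.000215 and 0.0993.

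Cyp4a31, a close paralog of Cyp4a10, went the other way. It ranged from 5.21 to 9.11 CPM with a median of 7.22 in Ctrl mice, and from 41.1 to 51.5 CPM with a median of 42.5 in ABpIF/+ mice. Every ABpIF/+ mouse was above every Ctrl mouse, and the log2 fold change was 2.65 ± 0.16 (adjusted p = 4.47e-11 by edgeR), a 6.26-fold difference. Cyp4a32, the other close paralog, ranged from 17.2 to 39.1 CPM in Ctrl and from 11.4 to 26.2 CPM in ABpIF/+ mice. These ranges overlapped, and the log2 fold change of -0.51 ± 0.33 did not pass (adjusted p = 0.334 by edgeR). With the counts of Cyp4a10, Cyp4a31 and Cyp4a32 added up before the fit, the sum was downregulated, with a log2 fold change of -1.21 ± 0.26 (adjusted p = 0.00204 by edgeR). Cyp4a10 made up most of this sum in Ctrl mice, with a median of 474 CPM of 509, so the sum follows Cyp4a10 and does not bear on the direction of Cyp4a31.

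Among the Cyp4f members the fall of Cyp4f14 stood out in size. It ranged from 306 to 461 CPM with a median of 399 in Ctrl mice and from 53.8 to 102 CPM with a median of 78.1 in ABpIF/+ mice, with no overlap. Its log2 fold change was -2.35 ± 0.20 (adjusted p = 1.65e-08 by edgeR). Cyp4f15, which is 82.1% identical to Cyp4f14 in coding sequence, ranged from 127 to 205 CPM in Ctrl and from 78.7 to 120 CPM in ABpIF/+ mice. Its groups did not overlap and its adjusted p was 0.000507 in edgeR, but its log2 fold change of -0.70 ± 0.14 was under the limit for a call. Cyp4f13 ranged from 65.0 to 84.1 CPM in Ctrl and from 58.0 to 81.3 CPM in ABpIF/+ mice, with a log2 fold change of -0.09 ± 0.11 (adjusted p = 0.708 by edgeR).

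Cyp4v3, the mouse counterpart of the gene mutated in Bietti crystalline dystrophy, ranged from 305 to 394 CPM with a median of 379 in Ctrl mice and from 89.6 to 119 CPM with a median of 103 in ABpIF/+ mice. The groups were far apart, and the log2 fold change was -1.80 ± 0.13 (adjusted p = 7.62e-10 by edgeR). Cyp4a12a was counted at most 11 times in a Ctrl mouse and 10 times in an ABpIF/+ mouse. Cyp4a12b was counted at most 17 times in Ctrl, and at most 41 times in ABpIF/+ mice, in BG31. Neither passed the test (adjusted p = 1 by edgeR for Cyp4a12a and 0.390 for Cyp4a12b), and a difference was not detectable at this depth.

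The comparison of ABpIF/F with Ctrl mice asks how livers with Braf V600E and both Icmt alleles floxed differ from control. Icmt reads remained in these livers, at 15.2 to 16.6 CPM against 27.8 to 34.7 CPM in Ctrl mice. The study reported clearly lower ICMT protein in ABpIF/F than in ABpIF/+ and Ctrl livers, but could not exclude that the deletion was incomplete. Bulk liver RNA also comes from cells other than hepatocytes, so these reads do not measure how complete the deletion was. Here 5 of 10 members were downregulated, Cyp4a10, Cyp4a14, Cyp4f14, Cyp4f15 and Cyp4v3, and Cyp4a31 was upregulated. Of all genes with a read 3.17% were called down and 6.06% up, and of genes averaging 1 CPM or more 5.04% were called down and 7.53% up.

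Cyp4a10 stood at 14.4 CPM in mouse BG38, 8.36 in BG90 and 55.4 in BG183, against at least 391 CPM in Ctrl mice. Its log2 fold change was -4.28 ± 0.58 (adjusted p = 0.000134 by edgeR), a 19.4-fold difference, and without BG183 it was -5.47. Cyp4a14 stood at 16.8 CPM in BG38, 22.7 in BG90 and 112 in BG183, against at least 502 CPM in Ctrl mice. In both genes BG183 was several times above the other ABpIF/F mice and below every Ctrl mouse. The log2 fold change of Cyp4a14 was -3.83 ± 0.65 (adjusted p = 0.000939 by edgeR), and without BG183 it was -5.19. Cyp4a31 stood at 23.3 CPM in BG38, 14.3 in BG90 and 30.6 in BG183, above every Ctrl mouse. Its log2 fold change was 1.67 ± 0.18 (adjusted p = 6.14e-07 by edgeR). Cyp4a32, at 10.5, 6.79 and 25.2 CPM in the same order of mice, overlapped with Ctrl, and its log2 fold change was -0.75 ± 0.41 (adjusted p = 0.289 by edgeR). The 3 paralogs added up before the fit had a log2 fold change of -3.09 ± 0.38 (adjusted p = 1.57e-05 by edgeR). This was a smaller fall than that of Cyp4a10 alone. In Ctrl mice most of the sum was Cyp4a10. In ABpIF/F mice Cyp4a10 had a median of 14.4 CPM and the sum a median of 48.2 CPM.

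Cyp4f14 stood at 78.3 CPM in BG38, 119 in BG90 and 189 in BG183, below every Ctrl mouse, with a log2 fold change of -1.61 ± 0.25 (adjusted p = 9.56e-05 by edgeR). Cyp4f15 stood at 64.6, 77.6 and 98.0 CPM in the same order, also below every Ctrl mouse. Its log2 fold change of -1.05 ± 0.18 (adjusted p = 0.000191 by edgeR) was just past the limit and fell short of it without BG38 (-0.91) or without the Ctrl mouse malpa387 (-0.98). Cyp4f13 stood at 42.5, 46.5 and 58.4 CPM, below the lowest Ctrl mouse at 65.0 CPM, and its log2 fold change of -0.52 ± 0.14 (adjusted p = 0.0104 by edgeR) was not called. Cyp4v3 stood at 128 CPM in BG38, 156 in BG90 and 210 in BG183, and its log2 fold change was -1.14 ± 0.16 (adjusted p = 2.48e-05 by edgeR). It was -0.99 without BG38. Cyp4a12a had at most 5 counts and Cyp4a12b at most 1 count in an ABpIF/F mouse, and neither passed (adjusted p = 0.317 by edgeR and 0.0770).

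**Figure D2:**
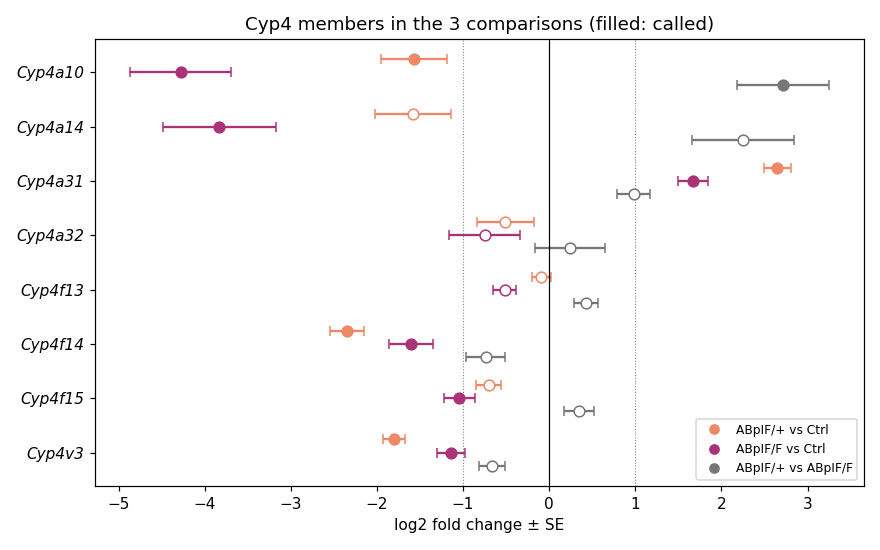
Log2 fold change ± SE from the edgeR fit is shown on the horizontal axis for 8 members in the 3 comparisons; filled circles are called, open circles are not, and dotted lines mark a log2 fold change of 1 in either direction. Cyp4a10 and Cyp4a14 lie farthest to the left in ABpIF/F vs Ctrl, at -4.28 and -3.83, and Cyp4a31 lies right of 0 in all 3 comparisons. Cyp4a12a and Cyp4a12b are left out for their low counts.

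The comparison of ABpIF/+ with ABpIF/F mice asks what the second Icmt allele changes in Braf V600E liver. It shares its mice with the other comparisons, and only Cyp4a10 was called, 1 of 10 members up in ABpIF/+ mice. No member was called down in edgeR or in DESeq2. At an unadjusted p under 0.05 by edgeR, 5 members were higher in ABpIF/+ mice and 2 members, Cyp4f14 and Cyp4v3, were lower. The share of all genes under that unadjusted limit is not given here. Of all genes with a read 2.35% were called up and 7.32% down, and of genes averaging 1 CPM or more 3.72% and 8.50%.

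The log2 fold change of Cyp4a10 was 2.71 ± 0.53 (adjusted p = 0.00264 by edgeR), and the lowest ABpIF/+ mouse (124 CPM) was above the highest ABpIF/F mouse (55.4 CPM). Without BG183 the log2 fold change was 3.90. Without BG38 the adjusted p was 0.0221, and in a fit on these 2 groups alone it was 0.0306. Cyp4a14 had a log2 fold change of 2.25 ± 0.60 (adjusted p = 0.0176 by edgeR) and was not called, but DESeq2 called it (adjusted p = 0.000442), as did edgeR without BG183 (log2 fold change 3.61, adjusted p = 4.79e-05). Cyp4a31 was higher in every ABpIF/+ mouse than in any ABpIF/F mouse, with a log2 fold change of 0.98 ± 0.19 (adjusted p = 0.000779 by edgeR), just under the limit of 1. The order of the groups thus differed between paralogs. Cyp4a10 went from Ctrl through ABpIF/+ down to ABpIF/F, and Cyp4a31 from Ctrl through ABpIF/F up to ABpIF/+.

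Cyp4v3 and Cyp4f14 were lowest in ABpIF/+ mice rather than in ABpIF/F mice. Cyp4v3 did not overlap between ABpIF/+ (at most 119 CPM) and ABpIF/F mice (at least 128 CPM), with a log2 fold change of -0.66 ± 0.15 (adjusted p = 0.00334 by edgeR), which is under the limit. Cyp4f14 overlapped between them, with a log2 fold change of -0.74 ± 0.23 (adjusted p = 0.0277 by edgeR). Cyp4f15 and Cyp4f13 had log2 fold changes of 0.34 ± 0.17 and 0.42 ± 0.14 (adjusted p = 0.206 by edgeR and 0.0349), and Cyp4a32 of 0.24 ± 0.41 (adjusted p = 0.942 by edgeR). Cyp4a12b, at most 1 count in ABpIF/F mice, was not called in edgeR (adjusted p = 0.0180) but was called by DESeq2 (adjusted p = 0.00303).

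These differences changed the make-up of the Cyp4a reads. In Ctrl mice Cyp4a14 held 49.4% to 60.8% of the counts of the 6 Cyp4a members and Cyp4a10 held 36.7% to 46.0%. Cyp4a31 held 0.309% to 0.851% in Ctrl, 6.56% to 13.3% in ABpIF/+ and 13.7% to 35.9% in ABpIF/F mice, so that the 3 groups did not overlap. Cyp4a32 held 1.33% to 3.85% in Ctrl, 2.19% to 6.89% in ABpIF/+ and 11.3% to 16.1% in ABpIF/F mice. The larger share of Cyp4a31 in ABpIF/F than in ABpIF/+ mice came with a lower level of Cyp4a31 itself, while Cyp4a10 and Cyp4a14 differed between these groups by larger log2 fold changes.

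**Figure D3:**
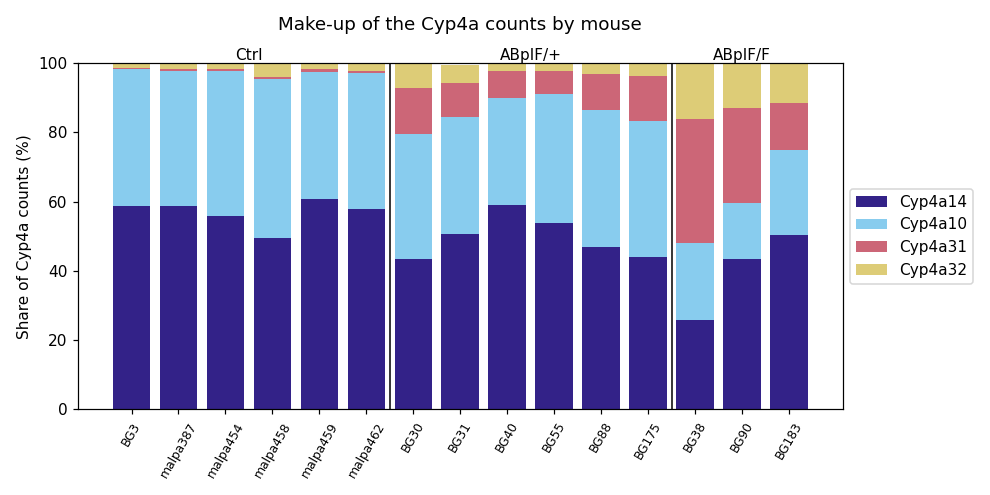
Each bar is 1 mouse and shows the share of the Cyp4a counts, in percent, held by Cyp4a14, Cyp4a10, Cyp4a31 and Cyp4a32; Cyp4a12a and Cyp4a12b each held at most 0.397% in a mouse. Cyp4a31 reaches 35.9% in mouse BG38 and stays at or below 0.851% in Ctrl mice.

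The difference in clock score moved with the Icmt flx/flx genotype and its part in the results was not tested beyond a fit with the score as a covariate. Of the Ctrl mice only malpa387 had a score in the ABpIF/F range, so this fit separated score and group largely through 1 mouse. In that fit the log2 fold changes in ABpIF/F vs Ctrl were -4.23 for Cyp4a10 (adjusted p = 0.00233 by edgeR), -1.28 for Cyp4f15 (adjusted p = 0.00219) and 1.81 for Cyp4a31 (adjusted p = 0.000618), all still called. They were -3.81 for Cyp4a14 (adjusted p = 0.0102), -1.22 for Cyp4f14 (adjusted p = 0.0302) and -0.96 for Cyp4v3 (adjusted p = 0.0109), none of which was called. Cyp4a10 was not called in ABpIF/+ vs ABpIF/F either (adjusted p = 0.0393 by edgeR), nor in ABpIF/+ vs Ctrl (log2 fold change -1.58, adjusted p = 0.0102). The Ctrl mouse malpa387, whose clock score was like that of the ABpIF/F mice, had 638 CPM of Cyp4a10 and 952 CPM of Cyp4a14, each the second highest of all 15 mice. The same mouse had the lowest Por (286 CPM), Cyp4f14 (306 CPM) and Ppara (173 CPM) of the Ctrl mice.

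**Figure D4:**
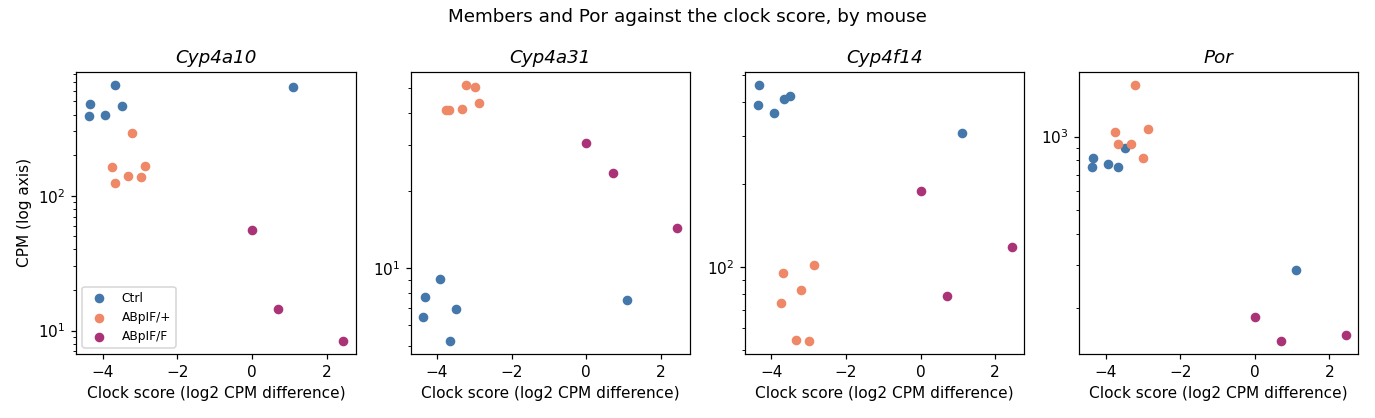
The clock score (a difference of mean log2 CPM, horizontal axis) is plotted against CPM on a log axis for Cyp4a10, Cyp4a31, Cyp4f14 and Por; each point is 1 mouse, colored by group. The ABpIF/F mice and the Ctrl mouse malpa387 lie at scores of 0.0011 or more and the other 11 mice at -2.87 or less. Mouse malpa387 is among the Ctrl mice in Cyp4a10, the lowest Ctrl mouse in Cyp4f14, and near the ABpIF/F mice in Por.

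Strain label and group could be separated only through BG3, the 1 Ctrl mouse with the label of the ABpI mice. BG3 had 666 CPM of Cyp4a10, 992 of Cyp4a14, 5.21 of Cyp4a31, 409 of Cyp4f14 and 375 of Cyp4v3. It thus had the highest Cyp4a10 and Cyp4a14 and the lowest Cyp4a31 of the Ctrl mice. With the strain label as a covariate the call of Cyp4a10 in ABpIF/+ vs Ctrl was lost (log2 fold change -1.97, adjusted p = 0.0681 by edgeR), and those of Cyp4a31, Cyp4f14 and Cyp4v3 were kept, at 3.11, -2.41 and -1.85.

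The groups also differed in markers of other liver cells, whose part in these results was not tested. In bulk tissue fewer cells of a type and less RNA per cell cannot be told apart. The summed level of 10 hepatocyte markers was 121161 to 165714 CPM in Ctrl, 227992 to 319663 in ABpIF/+ and 184450 to 288685 in ABpIF/F mice. In each comparison with Ctrl 3 of these markers were called up and 0 down by edgeR, with a median log2 fold change of 0.76 and a lowest of -0.81 in ABpIF/+ mice, and of 0.74 and -1.03 in ABpIF/F mice. The sum of 8 cholangiocyte markers, 6 of which were called up in ABpIF/F vs Ctrl, was at most 88.7 CPM in Ctrl and 239 to 1203 CPM in ABpIF/F mice. Of 10 neutrophil markers 9 were called up in ABpIF/F vs Ctrl, and Ly6g had 0 counts in every Ctrl mouse. Their sum was 5.06 to 100 CPM in ABpIF/F mice, against 2.47 to 4.42 in Ctrl and 3.19 to 11.5 in ABpIF/+ mice. The lowest ABpIF/F mouse was thus just above the Ctrl range. Of 9 stellate cell and fibroblast markers 7 were called down in ABpIF/+ vs Ctrl, with sums of 59.5 to 127 CPM against at least 217 CPM. In the same comparison 5 of 9 macrophage, 3 of 10 lymphocyte and 2 of 8 endothelial markers were called down and 0 up. In ABpIF/F vs Ctrl 0, 1 and 1 of these were called up and 0 down. Of all genes with a read 7.13% were called down in ABpIF/+ vs Ctrl and 6.06% up in ABpIF/F vs Ctrl.

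Other genes of the Cyp4 family were low in this tissue, at a sum of 22.9 to 51.3 CPM over 10 genes. Cyp4f16 was upregulated in ABpIF/+ vs Ctrl (log2 fold change 1.76 ± 0.12, adjusted p = 3.90e-10 by edgeR) and in ABpIF/F vs Ctrl (1.73 ± 0.14, adjusted p = 1.07e-08). Its mean was 4.43 ± 0.56 CPM in Ctrl, 15.1 ± 1.4 in ABpIF/+ and 14.7 ± 0.65 in ABpIF/F mice (SD). Cyp4f18, the leukotriene B4 hydroxylase of neutrophils, was also called up in ABpIF/F vs Ctrl, by 2.05 ± 0.50 (adjusted p = 0.00506), and was named after its values were seen. It had 182 counts in BG38, 59 in BG90 and 18 in BG183, against 9 to 24 in Ctrl mice, so that BG183 lay within the Ctrl range. No other of the 9 genes with a read was called in a comparison with Ctrl.

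Of the 4 electron donors of P450 enzymes, Por differed between the ABpI groups more than most members did. Por ranged from 286 to 896 CPM with a median of 763 in Ctrl and from 818 to 1626 CPM with a median of 988 in ABpIF/+ mice, and stood at 147, 156 and 185 CPM in the ABpIF/F mice BG38, BG90 and BG183. It was downregulated in ABpIF/F vs Ctrl (log2 fold change -2.13 ± 0.29, adjusted p = 1.93e-05 by edgeR) and 2.72 ± 0.30 higher in ABpIF/+ than in ABpIF/F mice (adjusted p = 4.18e-06). In ABpIF/+ vs Ctrl its log2 fold change of 0.59 ± 0.21 did not pass (adjusted p = 0.0485). Cyb5b, an outer mitochondrial membrane cytochrome b5, was downregulated in both ABpI groups against Ctrl, by -1.66 ± 0.16 and -1.22 ± 0.20 on the log2 scale (adjusted p = 4.45e-08 and 0.000124).

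Genes for the steps that follow hydroxylation were called down in part. A list of 16 genes held those for the oxidation, activation and peroxisomal import of omega-hydroxylated fatty acids, with Crot and the acyl-CoA thioesterases Acot4 and Acot8. Of these 16 genes 8 were called down and 0 up in ABpIF/+ vs Ctrl (median log2 fold change -1.06), and 7 down and 0 up in ABpIF/F vs Ctrl (median -0.91). The median over all genes with a read was 0 and 0.09, and 7.13% and 3.17% of them were called down. In ABpIF/+ mice the largest falls were in Crot, a peroxisomal carnitine acyltransferase (-2.98 ± 0.29), the aldehyde dehydrogenase Aldh1a1 (-2.96 ± 0.22) and the alcohol dehydrogenase Adh4 (-2.71 ± 0.18). In ABpIF/F mice they were in the fatty aldehyde dehydrogenase Aldh3a2 (-2.41 ± 0.22), Abcd3 (-2.11 ± 0.21), which carries fatty acids into peroxisomes, and Aldh1a1 (-1.96 ± 0.27). Crot was 2.38 lower on the log2 scale in ABpIF/+ than in ABpIF/F mice and Aldh3a2 was 1.29 higher.

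Of 15 genes of peroxisomal beta oxidation 9 were called down in ABpIF/+ vs Ctrl and 10 in ABpIF/F vs Ctrl, none up in either, and none differed between the ABpI groups by the call. Acaa1b, a peroxisomal thiolase, fell by 3.29 and 3.83 on the log2 scale and the bifunctional enzyme Ehhadh by 1.94 and 2.04. Of 15 genes of mitochondrial oxidation and ketogenesis, 7 and 6 were called down, among them Cpt2 by 1.78 and 1.97. Of 26 further targets of PPAR alpha, some of which are also in the lists above, 12 were called down and 0 up in each comparison with Ctrl. Fabp1, a fatty acid binding protein, fell by 3.15 in ABpIF/+ mice, and Acot1, an acyl-CoA thioesterase, by 3.34 in ABpIF/F mice.

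**Figure D5:**
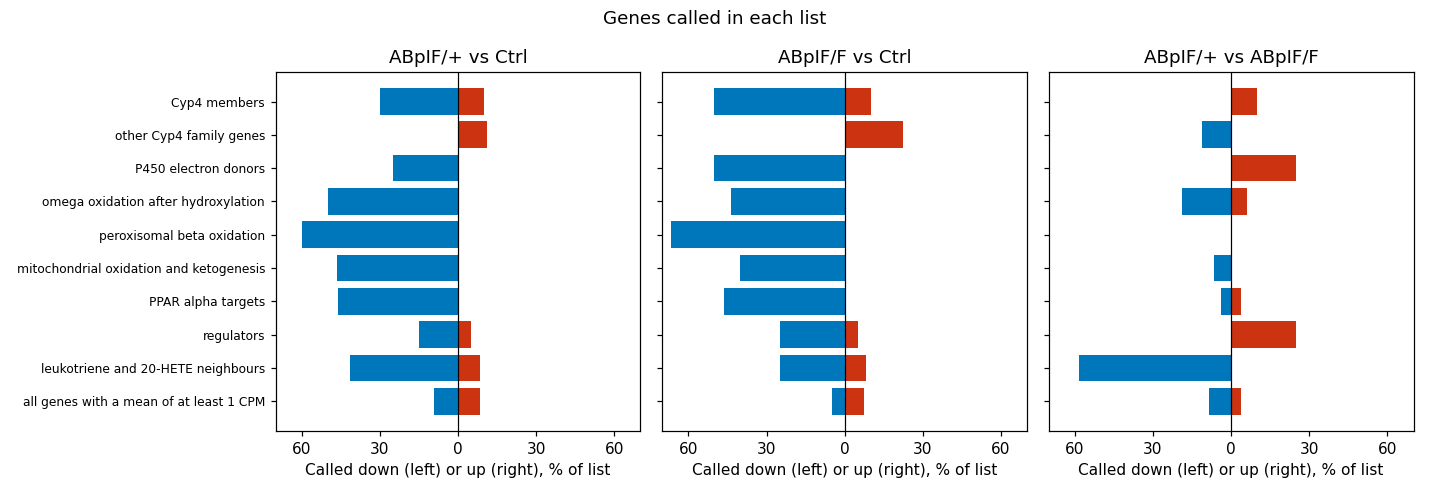
For each list of genes, bars give the percent of its genes with a read that were called down (blue, to the left) or up (red, to the right) in each comparison by edgeR. Of the peroxisomal beta oxidation genes 9 of 15 and 10 of 15 were called down against Ctrl, and in the bottom row the genes averaging 1 CPM or more show 9.39% and 5.04% called down.

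Ppara, the receptor itself, ranged from 173 to 464 CPM with a median of 376 in Ctrl and from 196 to 249 CPM with a median of 223 in ABpIF/+ mice. These overlapped, and the log2 fold change of -0.60 ± 0.21 was not called (adjusted p = 0.0389 by edgeR). In the ABpIF/F mice BG38, BG90 and BG183 it stood at 102, 75.0 and 143 CPM. It was downregulated in ABpIF/F vs Ctrl (-1.66 ± 0.28, adjusted p = 0.000209 by edgeR) and was 1.06 ± 0.27 higher in ABpIF/+ than in ABpIF/F mice (adjusted p = 0.00811). Of 20 regulators listed, including Ppara, 1 was called up and 3 down in ABpIF/+ vs Ctrl, and 1 up and 5 down in ABpIF/F vs Ctrl. Among all genes with a read 6.26% were called up and 7.13% down in ABpIF/+ vs Ctrl. In ABpIF/F vs Ctrl the shares were 6.06% and 3.17%. The growth hormone receptor Ghr fell in both, by 1.50 and 1.89, and the female-typical factor Cux2 fell by 2.39 in ABpIF/F mice. The coactivator Ppargc1a was upregulated in ABpIF/+ vs Ctrl (1.43 ± 0.19).

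A list of 12 genes held enzymes of leukotriene and arachidonic acid metabolism and receptors for products of these pathways. Of these 12 genes 5 were called down and 1 up in ABpIF/+ vs Ctrl, and 3 down and 1 up in ABpIF/F vs Ctrl. The shares over all genes with a read were 7.13% down and 6.26% up, and 3.17% down and 6.06% up. The epoxygenase Cyp2j5 fell by 4.57 on the log2 scale in ABpIF/+ and by 2.35 in ABpIF/F mice. The epoxygenase Cyp2c23 fell by 2.77 and 1.52. The epoxide hydrolase Ephx2 fell by 1.62 and 2.12. The list did not fall as a whole in ABpIF/F mice. Its median log2 fold change against Ctrl was -1.31 in ABpIF/+ mice and 0.32 in ABpIF/F mice, with highest values of 1.25 and 3.67. Cyp2j5 and Cyp2c23 were, as Cyp4f14 and Cyp4v3, lowest in ABpIF/+ mice.

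Some genes outside the family varied over the 15 mice much as members did, by Pearson's r of log2 CPM among 9533 genes averaging 5 CPM or more. The mice come from 3 groups with different means, so these values describe shared group differences and carry no test. Cyp4v3 was closest to Lamp2 (0.99), Acsf2 (0.99) and Mup9 (0.99), and Cyp4f14 to Car5a (0.98), Maob (0.98) and Ido2 (0.98). Cyp4a14 was closest to Atad3a (0.97), Mtarc1 (0.96) and Atp5f1b (0.95). For Cyp4a31, added after its values were seen, they were Pde6c (0.99), 2310034O05Rik (0.97) and 1810010H24Rik (0.97). Cyp4a12a gave Ap4b1 (0.82), Wipf3 (0.79) and Rsad1 (0.78), which mean little at its counts. Among the members, r was 0.98 between Cyp4a10 and Cyp4a14, 0.97 between Cyp4f14 and Cyp4v3 and -0.95 between Cyp4a31 and Cyp4v3.

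Because Cyp4f14 and Cyp4v3 moved together, the sequence just upstream of each gene is shown, from the RefSeq promoter table (GRCm38.p6), 5′ to 3′ along the gene's strand. Capitals mark the motif CACGTG, an E-box. The first is chr17:32917357-32917606, minus strand, and the other chr8:45333217-45333413, minus strand.
Cyp4f14: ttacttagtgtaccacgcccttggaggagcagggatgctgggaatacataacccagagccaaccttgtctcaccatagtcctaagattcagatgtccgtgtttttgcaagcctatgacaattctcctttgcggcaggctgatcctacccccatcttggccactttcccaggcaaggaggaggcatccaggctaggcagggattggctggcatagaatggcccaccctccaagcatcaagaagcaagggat
Cyp4v3: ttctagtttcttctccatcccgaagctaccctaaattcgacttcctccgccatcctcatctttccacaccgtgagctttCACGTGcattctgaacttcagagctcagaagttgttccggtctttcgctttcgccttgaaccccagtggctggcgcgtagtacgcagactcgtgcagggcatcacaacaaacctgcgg
Of the motifs AGGTCA, DR1 (the direct repeat of AGGTCA with 1 base between), TTATGTAA and CACGTG, searched on both strands in the 250 bases before each start, only CACGTG occurred, once, in Cyp4v3. These occurred in 14%, 0.0335%, 0.819% and 6.02% of the 32851 promoters in the table, and a DR1 match holds AGGTCA as well. The windows of Cyp4a32, Cyp4f13 and Cyp4f15 held none of them. Promoters of Cyp4a10, Cyp4a12a, Cyp4a12b, Cyp4a14 and Cyp4a31 were not analysed here.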

How the data were processed

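The authors extracted total RNA from liver with Trizol, prepared stranded mRNA libraries, aligned the reads to mm10 (GRCm38) by HISAT2, and obtained counts per gene by featureCounts 2.0.8; the strand setting and annotation are not given in the sources used here. The deposited values are raw counts of 27179 genes, 1 column per mouse, although 23 samples are listed for 15 mice. The mice named by 2 samples were each counted as 1 replicate. Columns of the authors' own comparisons (fold changes and p-values) were not used. In R 4.3.3 with edgeR 4.0.16, libraries were scaled by TMM, dispersions estimated robustly and a quasi-likelihood model in the form of older edgeR versions fitted to all genes, with p-values adjusted by Benjamini-Hochberg. SE is the log2 fold change divided by the root of the F statistic. The fit was tested on simulated data. Alternatives included DESeq2 1.42.0, and leaving out each mouse in turn. Sequences were compared in Biopython 1.88 on GENCODE M21 transcripts. P-values measure the spread between mice, and the depth of 24742910 to 32262649 counts limits members with few counts. Named list genes were up to 3 called genes per list and comparison with the largest fold change and a mean of at least 5 CPM in 1 group, and, for 4 members and Cyp4a31, the 3 genes with the highest correlation. The members and lists were chosen with earlier results of these data known.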

Additional observations from a re-analysis of the deposited data

Results flagged for a closer look

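In 3 of 20 groups of 6 mice tested, each a member in Ctrl or ABpIF/+ mice, 1 mouse lay farther from the others than Dixon's 95% critical value for the gap over the range allows, and chance flags about 1 in 20 such groups. Cyp4a10 stood at 293 CPM in the ABpIF/+ mouse BG55, with the next mouse at 166 CPM. Cyp4f13 stood at 81.3 CPM in the same mouse, with the next at 66.6 CPM. Cyp4a12b stood at 1.65 CPM in the ABpIF/+ mouse BG31, with the next at 0.307 CPM. Without BG55 the log2 fold change of Cyp4a10 in ABpIF/+ vs Ctrl was -1.79.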

How the results depend on the processing

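Over 26 alternatives, 15 of which left out 1 mouse each, Cyp4a31 was higher than in Ctrl in both ABpI groups wherever it was fitted on its own. The sum of Cyp4a10, Cyp4a31 and Cyp4a32, which is mostly Cyp4a10 in Ctrl and is no measurement of Cyp4a31, had log2 fold changes of -1.21 and -3.09. Members called down in ABpIF/+ vs Ctrl were 1 (Cyp4f14) at a log2 fold change of at least 2 and 5 with paralogs summed, which counts the sum for each of its 3 genes, and 2 (10 of the 15 mice) to 4 (BG55, BG38 or BG183) without 1 mouse; members called up were 0 with paralogs summed. In ABpIF/F vs Ctrl 2 were called down at a log2 fold change of at least 2 and 2 with the clock score as covariate, and 3 to 5 without 1 mouse (3 without BG38); 0 were called up at a log2 fold change of at least 2 or with paralogs summed. Members called up in ABpIF/+ vs ABpIF/F were 3 with DESeq2, with filterByExpr, at an adjusted p under 0.05 and with paralogs summed, 2 without robust estimation, 0 in a fit on only the groups compared or with the clock score, and 0 to 3 without 1 mouse (0 without BG38, 3 without BG183 or BG175).

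All genes called in ABpIF/+ vs Ctrl numbered 2729, against 1095 at a log2 fold change of at least 2 and 1357 with the strain label. In ABpIF/F vs Ctrl 1883 became 856, 1148 and, with the clock score, 665, and without 1 mouse 1212 (BG38) to 2276 (BG183). In ABpIF/+ vs ABpIF/F 1969 became 855 at a log2 fold change of at least 2, 450 with the clock score, and 1155 (BG38) to 2048 (BG183) without 1 mouse. Low counts limit Cyp4a12a and Cyp4a12b: in ABpIF/+ vs Ctrl the log2 fold change of Cyp4a12a was 0.53 with the strain label, 0.57 with paralogs summed and -0.586 (BG31) to 0.0180 (malpa458) without 1 mouse, and that of Cyp4a12b -0.0704 (BG31) to 1.64 (malpa458) without 1 mouse. Cyp4a32 in ABpIF/+ vs ABpIF/F was -0.0901 (BG90) to 0.952 (BG183) without 1 mouse. The cause was not tested for these changes.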

Other observations

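Genes typical of 1 sex in mouse liver, named here as lists of their own, changed in both directions in these female mice. Of 18 female-biased genes 3 were called up and 8 down in ABpIF/+ vs Ctrl, and 1 up and 10 down in ABpIF/F vs Ctrl. Among all genes with a read the shares were 6.26% up and 7.13% down, and 6.06% up and 3.17% down. A1bg fell by 11.5 on the log2 scale in ABpIF/F mice, and the estrogen sulfotransferase Sult1e1 was 7.57 higher in ABpIF/+ mice (adjusted p = 8.20e-06 by edgeR). Of 15 male-biased genes 3 were called up and 8 down in ABpIF/+ vs Ctrl, among the latter Slco1a1 (-5.15) and Mup3 (-8.26), which has near-identical copies in the Mup family, and 2 up and 5 down in ABpIF/F vs Ctrl. Cyp4a12a, which is typical of males, and its paralog Cyp4a12b had at most 41 counts in any mouse.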
